A study of Mus musculus with 18 samples.

Results

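Prostaglandins, thromboxane and leukotrienes are lipid mediators made from arachidonic acid, and the genes of 10 proteins that make or control them were followed here through 3 populations of lung monocytes and macrophages: Ptgs1, Ptgs2, Ptges, Hpgds and Tbxas1 of the prostanoid branch, Alox5, Alox5ap and Ltc4s of the leukotriene branch, Alox15, a second lipoxygenase, and Pla2g7, a hydrolase of platelet-activating factor (PAF). They were chosen by name from the 21254 genes of the deposited count table, and all 10 were found there and passed the filter on low counts. The populations were sorted from perfused lungs of mice killed 24 h after nebulization of Pseudomonas aeruginosa lipopolysaccharide (LPS), 12.5 mg in 5 ml of buffer over 15 min, and were named by surface markers on CD45+CD11b+ cells. Monocyte-derived macrophages (moM) were MHC-II-Ly6C+, transitional interstitial macrophages (trIM) were MHC-II+Ly6C+ and mature interstitial macrophages (matIM) were MHC-II+Ly6C-. By the methods of the study they came from the CD11c- fraction, with dendritic cells sought among CD11c+ cells and granulocytes separated by CD24, MHC-II, Ly6G and SiglecF.

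Ezr-KOm mice carry floxed alleles of Ezr, the gene of the cytoskeletal linker ezrin, and Cre recombinase in the Cx3cr1 locus. The control mice, called WT, carry the same Cre allele without floxed Ezr, so WT and Ezr-KOm cells share the Cre insertion, and all of the mice had received LPS. Both genotypes were adult mice on a C57BL/6 background and of both sexes. The Cx3cr1 locus drives Cre in monocytes and macrophages and, at a lower level, in some dendritic cells, eosinophils and natural killer cells, which limits the model as one of macrophages alone. There were 3 libraries for every population in either genotype, 18 in all, and the study's methods state 3 animals for each genotype.

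Arachidonic acid is released from membrane phospholipids by phospholipases. The cyclooxygenases encoded by Ptgs1, the constitutive enzyme, and Ptgs2, the enzyme induced by inflammatory stimuli, turn it into prostaglandin H2, from which terminal synthases make prostaglandin E2 (Ptges), prostaglandin D2 (Hpgds) or thromboxane (Tbxas1). Alternatively, 5-lipoxygenase (Alox5), helped by its activating protein (Alox5ap), makes leukotriene A4, which leukotriene C4 synthase (Ltc4s) conjugates to glutathione. Macrophages and monocytes are well-known sources of these mediators in the inflamed lung.

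The promoters of 5 members are shown first, picked because genes that share a motif there differed in direction between matIM and moM below. Of Ptgs1 and Hpgds the first fell and the second rose, and of Ptgs2, Ptges and Alox5 only Alox5 rose. Pla2g7, which is not printed, also held the GC box of these last and fell. Any part of the motifs in these directions was not tested. The sequences shown are the 250 bases before the RefSeq start, read 5′ to 3′ on the gene's strand. They came from a table on GRCm38.p6 that held 8 of the 10 members and matched GRCm39 once for each of the 8. On GRCm39 they lie at chr1:149975532-149975781 (+) for Ptgs2, chr2:30793310-30793559 (-) for Ptges, chr6:116438140-116438389 (-) for Alox5, chr2:36120188-36120437 (+) for Ptgs1 and chr6:65121715-65121964 (-) for Hpgds. The RefSeq start of Ptges lies 26566 bases inside the gene of the deposited table, so it is the start of a shorter transcript. Capitals mark the GC box GGGCGG (Ptgs2, Ptges, Alox5), the C/EBP palindrome TTGCGCAA (Ptgs2) and the PU.1 motif GAGGAAGT (Ptgs1, Hpgds).
Ptgs2: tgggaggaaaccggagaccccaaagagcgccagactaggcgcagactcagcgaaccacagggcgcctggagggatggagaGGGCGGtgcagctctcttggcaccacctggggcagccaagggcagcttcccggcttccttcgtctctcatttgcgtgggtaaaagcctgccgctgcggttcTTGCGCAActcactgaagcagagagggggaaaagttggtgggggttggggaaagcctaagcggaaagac
Ptges: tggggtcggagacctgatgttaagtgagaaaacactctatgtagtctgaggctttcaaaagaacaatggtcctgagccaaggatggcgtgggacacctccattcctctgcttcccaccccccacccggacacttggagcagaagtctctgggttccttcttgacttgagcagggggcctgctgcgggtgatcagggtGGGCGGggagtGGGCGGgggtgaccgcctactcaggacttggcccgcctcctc
Alox5: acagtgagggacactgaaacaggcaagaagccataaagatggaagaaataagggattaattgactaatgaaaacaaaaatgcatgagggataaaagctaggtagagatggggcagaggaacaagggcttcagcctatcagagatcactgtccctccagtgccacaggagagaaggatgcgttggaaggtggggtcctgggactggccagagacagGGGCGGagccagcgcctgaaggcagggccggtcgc
Ptgs1: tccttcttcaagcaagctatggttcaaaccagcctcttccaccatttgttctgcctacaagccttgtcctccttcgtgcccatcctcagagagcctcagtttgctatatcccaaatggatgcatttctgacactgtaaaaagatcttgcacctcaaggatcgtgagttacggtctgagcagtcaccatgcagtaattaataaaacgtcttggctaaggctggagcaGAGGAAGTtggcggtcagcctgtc
Hpgds: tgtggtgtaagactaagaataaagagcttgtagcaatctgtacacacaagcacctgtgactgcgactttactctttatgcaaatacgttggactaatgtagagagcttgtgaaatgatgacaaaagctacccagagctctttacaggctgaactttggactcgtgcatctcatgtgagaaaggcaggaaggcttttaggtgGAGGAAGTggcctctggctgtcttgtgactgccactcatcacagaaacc

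The motifs were picked after the sequences had been read and were searched on both strands of windows that also took the first 50 bases of the transcript. The C/EBP palindrome, read by factors that act in myeloid cells, was in 0.183% of 32851 RefSeq promoters and in that of Ptgs2, at bases -69 to -62 from the start. In the same window Ptgs2 held an E-box, CACGTG, at bases 17 to 22 (7.15% of all promoters) that overlaps a CRE core, TGACG, at bases 14 to 18 (20.8%). GAGGAAGT was in 3.2% of all promoters and in 2 of the 8 members. GGGCGG was in 35.7% of all promoters and in 4 of the 8, Pla2g7 being the fourth. TATAAA was in 13.6% of all promoters and in Tbxas1 only among the 8, and the NF-kappaB consensus was in 4.51% of all promoters and in 0 of the 8. A match of letters is a description and does not show that a factor binds there.

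Library totals ran from 16512783 to 48460995 counts (median 24086623, second highest 27709052). Ezr averaged 531, 586 and 661 CPM (counts per 1000000 library counts after normalization) in WT moM, trIM and matIM and at 231, 191 and 135 CPM in the Ezr-KOm cells, with no overlap of the genotypes. The sorted surface markers followed the labels: H2-Ab1, an MHC-II chain, averaged 1348, 12585 and 15361 CPM in WT moM, trIM and matIM, and Ly6c2 481, 219 and 51.2 CPM. Lists of other cell types also moved with the populations. The 9 dendritic cell markers, all in the table, were led by Ccl22, Ccr7, Fscn1 and Cd209a. They summed to between 83.5 and 125 CPM in moM, 314 and 624 in trIM and 5745 and 7880 in matIM of both genotypes. Of the 9, 8 had higher means in WT matIM than in WT moM, and 9 than in WT trIM. Zbtb46 averaged 3.49, 17.9 and 120 CPM in WT moM, trIM and matIM. From WT moM to matIM, Clec9a rose from 0.948 to 4.05 CPM, and Xcr1, the exception, fell from 6.26 to 3.76 CPM. The 7 epithelial markers, led by Sftpc, summed to between 22.3 and 146 CPM in moM, 1525 and 4104 in trIM and 171 and 381 in matIM, and the 6 endothelial markers were likewise highest in trIM (216 to 479 CPM, against 93.7 to 129 in moM and 74.0 to 103 in matIM). The 9 neutrophil markers summed to between 611 and 893 CPM in moM and between 203 and 434 CPM in matIM, a difference carried by Mmp8 (means of 377 and 11.4 CPM in WT) and Csf3r (389 and 129 CPM), while the other 7 had higher means in WT matIM than in WT moM, among them S100a9 (15.7 and 71 CPM) and Retnlg (1.04 and 11.4 CPM). B cell markers averaged 10.5, 45.5 and 174 CPM in sum in WT moM, trIM and matIM, alveolar macrophage markers 110, 151 and 283 CPM, and fibroblast markers 29.3, 88.9 and 19.1 CPM. Itgax, which encodes CD11c, averaged 269, 555 and 657 CPM. In bulk samples such as these, fewer cells of a type and less RNA per cell cannot be told apart.

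Ptgs2 and Pla2g7 were the most abundant of the enzyme transcripts per length in every group of libraries. CPM per kb of transcript is used here to compare genes, with the length of the Ensembl canonical transcript. In WT moM, Ptgs2 stood at 390 ± 74.8 (SD, n = 3) and Pla2g7 at 320 ± 34.4 CPM per kb, and their ranges overlapped. Tbxas1 (75.3 ± 4.21), Alox5ap (49.6 ± 3.30) and Ptges (16.5 ± 3.98) followed with no overlap between neighbours. Alox5 (6.80 ± 0.506) and Ptgs1 (5.80 ± 0.762) overlapped by their ranges, as did each next neighbour among Ltc4s (0.779 ± 0.159), Alox15 (0.416 ± 0.203) and Hpgds (0.251 ± 0.149). In WT matIM the order was Ptgs2 (199 ± 27.9), Pla2g7 (96.0 ± 16.7), Tbxas1 (63.8 ± 5.67), Alox5ap (27.9 ± 7.70), Alox5 (12.1 ± 1.82), Ptges (8.18 ± 2.31), each clear of the next, and then Ptgs1 (3.48 ± 0.117), Alox15, Ltc4s and Hpgds, the last at 1.77 ± 0.368, each of which overlapped with its neighbour by range. Alox5 thus stood above Ptges in WT matIM and below it in WT moM. Ptgs2 ranked 165th of 15755 genes per length in WT moM and 328th in WT matIM, whereas Hpgds ranked 12932nd and 9515th. With the union of all annotated exons as the length, a choice made after the data were seen, Tbxas1 had 12 CPM per kb in WT moM and came below Alox5ap (35.8) and Ptges (13.9).

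**Figure D1:**
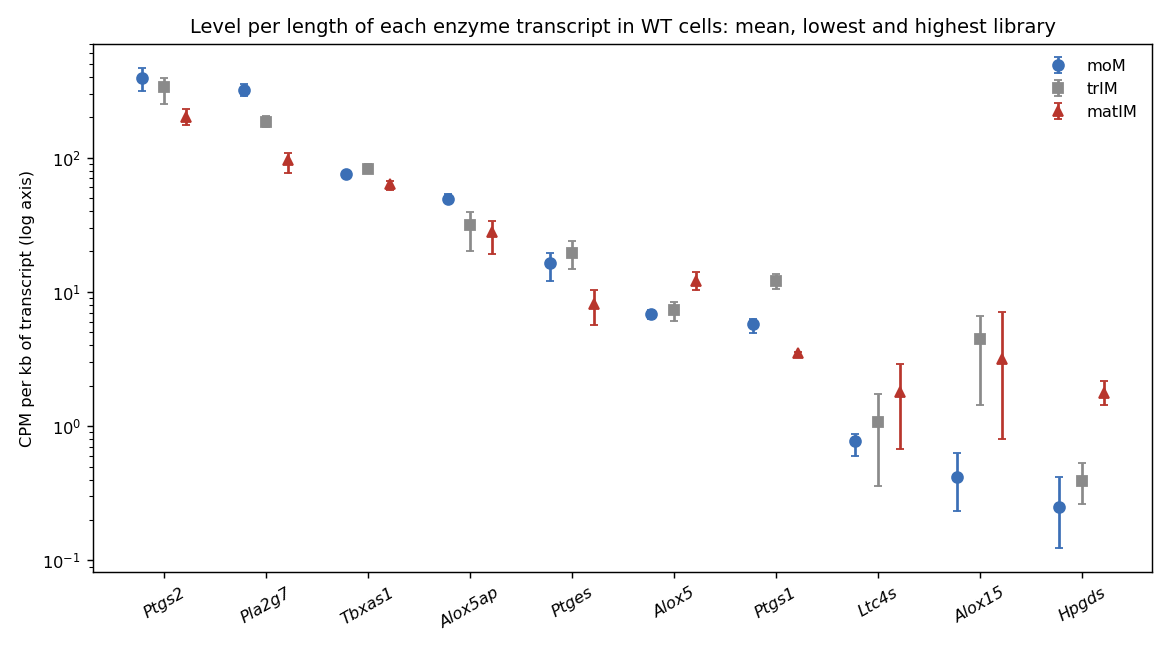
Level of the 10 enzyme transcripts in WT cells, in CPM per kb of canonical transcript on a log axis. Points are means of 3 libraries and bars run from the lowest to the highest library. Ptgs2 and Pla2g7 lie highest in moM (390 and 320), and Hpgds lowest (0.251).

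Between moM and matIM of WT mice, 8 of the 10 members changed at an adjusted p under 0.05 (edgeR quasi-likelihood test with Benjamini-Hochberg adjustment over all 15811 genes tested), against 24.8% of all genes tested. The count was 5 without matIM replicate 2 and 6 without any other of the 6 libraries compared. Ptgs1, Ptgs2, Ptges, Alox5ap and Pla2g7 fell and Hpgds, Alox5 and Alox15 rose. In Ezr-KOm mice the same 8 changed in the same directions, against 23.3% of all genes. From moM to trIM, 3 members changed in WT cells (Ptgs1 and Alox15 rose, Pla2g7 fell), against 21.6% of all genes, and 2 in Ezr-KOm cells (Alox15 rose, Pla2g7 fell), against 14.3%. The latter count was 4 with replicate numbers as a block, 5 with DESeq2, 1 without Ezr-KOm moM replicate 2 or 3, and 4 without Ezr-KOm trIM replicate 2 or 3. From trIM to matIM, 5 changed in each genotype, against 18.5% of all genes in WT and 18.2% in Ezr-KOm cells. Ptgs1, Ptges and Pla2g7 fell and Hpgds and Alox5 rose. These counts leave out the pairing by replicate number described below. As a block it added Alox5ap from WT moM to trIM (4572 of all 15811 genes called) and Ltc4s and Tbxas1 from Ezr-KOm moM to matIM (4625). From trIM to matIM it added Ptgs2 in both genotypes (3654 genes called in WT, 3696 in Ezr-KOm cells) and Tbxas1 in Ezr-KOm cells. It added none from WT moM to matIM and lost none of the calls. The median log2 difference of the 10 members was -0.49 between WT matIM and moM, 0.19 between WT trIM and moM and -0.42 between WT matIM and trIM, beside 0.01, 0.01 and 0.04 over all genes. The comparisons share groups of libraries and are not independent of each other. Of the marker lists above, those of dendritic cells, B cells and alveolar macrophages were highest in matIM, those of epithelial cells, endothelial cells and fibroblasts in trIM, and neutrophil markers moved in both directions, and their part in each difference was not tested.

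**Figure D2:**
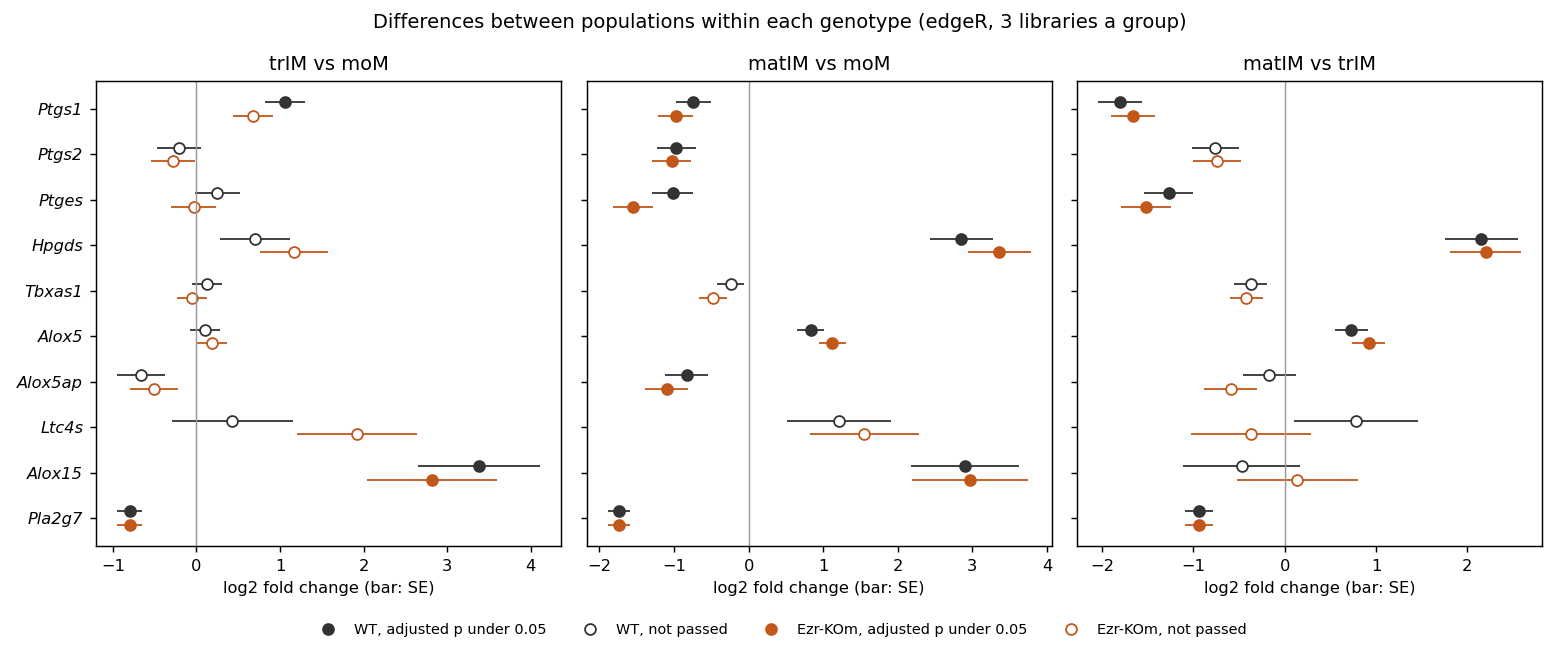
Log2 fold change of the 10 members between populations, within WT (black) and Ezr-KOm (orange) mice. Bars are the SE of the edgeR fit, and filled points passed an adjusted p of 0.05. Hpgds (2.85 in WT) and Pla2g7 (-1.74 in WT) mark the rising and the falling side of matIM against moM, and the points of both genotypes lie close together for Pla2g7.

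Ptgs1 (chr2:36120438-36142284, + strand, GRCm39), the constitutive cyclooxygenase, was the only member with its highest mean in trIM and its lowest in matIM in both genotypes. Its WT libraries read 14.1, 17.7 and 18.1 CPM in moM, 35.3, 30.1 and 39 CPM in trIM and 10.1, 9.61 and 10.2 CPM in matIM. All trIM libraries lay above all moM libraries, and all matIM libraries below them. In WT cells the log2 difference was 1.06 (SE 0.24, adjusted p = 0.00346) from moM to trIM, -1.80 (SE 0.24, adjusted p = 2.85e-05) from trIM to matIM and -0.74 (SE 0.24, adjusted p = 0.0315) from moM to matIM. The last was lost when any 1 of 5 of its 6 libraries was left out (adjusted p from 0.0649 to 0.0987) and with upper-quartile normalization (0.0505) or library totals (0.0696). The Ezr-KOm libraries read 23.5, 16.7 and 9.12 CPM in moM, 26.1, 30.9 and 22.0 CPM in trIM and 8.96, 7.60 and 8.47 CPM in matIM. The fall from moM to matIM (-0.98, adjusted p = 0.00565) did not pass without moM replicate 1 (-0.63, adjusted p = 0.0549). The moM and trIM libraries overlapped, and their difference did not pass (0.68, SE 0.24, adjusted p = 0.0652), though it did with replicate numbers as a block (0.70, adjusted p = 0.0411) and with DESeq2 (0.70, adjusted p = 0.0323). Platelet markers (6 in the table), led by Pf4, summed to between 26.0 and 96.9 CPM. Pf4 averaged 31.6, 28.2 and 65.2 CPM in WT moM, trIM and matIM. The other 5 had their highest WT means in trIM as Ptgs1 did, among them Itga2b (1.78, 4.08 and 1.20 CPM). The part of these markers was not tested.

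Ptgs2 (chr1:149975782-149983978, + strand), the inducible cyclooxygenase whose promoter with the C/EBP palindrome is printed above, was at 2208, 1849 and 1498 CPM in WT moM, 1850, 1189 and 1751 CPM in WT trIM and 1091, 908 and 834 CPM in WT matIM. Each matIM library lay below every library of the other WT populations, whereas moM and trIM overlapped. From moM to matIM the level fell 1.96-fold (log2 difference -0.97, SE 0.26, adjusted p = 0.0101), which did not pass without moM replicate 1 (-0.83, adjusted p = 0.0505). From trIM to matIM the log2 difference was -0.76 (SE 0.26, adjusted p = 0.0515), which passed with replicate numbers as a block (-0.78, adjusted p = 0.0150). In Ezr-KOm cells the values were 2676, 2828 and 1945 CPM in moM, 2038, 2109 and 1984 CPM in trIM and 1426, 1603 and 630 CPM in matIM. The fall to matIM was 2.04-fold from moM (adjusted p = 0.00735), and from trIM it was -0.74 on the log2 scale (adjusted p = 0.0563, and 0.0133 with the block).

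Ptges (chr2:30779483-30819875, - strand) encodes the microsomal synthase of prostaglandin E2 that is coupled to inducible cyclooxygenase. It read 71.8, 44.3 and 67.1 CPM in WT moM, 73.9, 55.1 and 88.7 CPM in trIM and 38.0, 21.1 and 31.5 CPM in matIM. As with Ptgs2, matIM lay below both other populations in every WT library, and moM and trIM overlapped. It fell 2.02-fold from moM to matIM (log2 difference -1.02, SE 0.27, adjusted p = 0.00923, but -0.81 and 0.0592 without matIM replicate 2) and 2.41-fold from trIM to matIM (-1.27, SE 0.27, adjusted p = 0.00239). The Ezr-KOm values were 80.1, 126 and 85.3 CPM in moM, 89.2, 111 and 84.1 CPM in trIM and 31.2, 45.4 and 22.6 CPM in matIM, a fall of 2.93-fold from moM (adjusted p = 0.000327) and 2.87-fold from trIM (adjusted p = 0.000505).

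Hpgds (chr6:65094277-65121892, - strand), the haematopoietic synthase of prostaglandin D2, moved the opposite way. It was scarce in WT moM (1.59, 0.829 and 0.472 CPM) and trIM (1.46, 1.01 and 2.04 CPM) and reached 5.54, 8.33 and 6.52 CPM in WT matIM. The matIM libraries were all above those of the other populations, which overlapped each other. The rise was 7.21-fold from moM (log2 difference 2.85, SE 0.42, adjusted p = 4.77e-05) and 4.45-fold from trIM (2.15, SE 0.40, adjusted p = 0.000622). In Ezr-KOm cells the values were 0.870, 1.08 and 0.837 CPM in moM, 2.7, 1.30 and 2.37 CPM in trIM and 7.35, 7.60 and 14.0 CPM in matIM, and the rise from moM was 10.3-fold (adjusted p = 7.57e-06). Mast cells and some dendritic cells also express Hpgds. The mast cell and basophil list (9 of 11 in the table) summed to between 158 and 251 CPM in trIM and 105 and 142 CPM in matIM. Its sum was carried by Hdc (61.0, 147 and 57.6 CPM in WT moM, trIM and matIM) and Kit (12.7, 38.1 and 59.6 CPM), followed by Gata2 (5.87, 22.0 and 2.61 CPM). Kit was highest in matIM as Hpgds was. Of the 9, however, 6 had lower means in WT matIM than in WT moM, and 7 than in WT trIM. Cpa3, Ms4a2, Tpsab1 and Mcpt8 averaged at most 0.252 CPM each in WT matIM. The part of this list and of the dendritic cell list, whose sums are given above, was not tested.

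Tbxas1 (chr6:38852338-39061519, + strand), thromboxane synthase, differed least. Its WT libraries read 158, 142 and 156 CPM in moM, 181, 155 and 164 CPM in trIM and 135, 116 and 136 CPM in matIM. The WT matIM libraries lay just below the others, without passing the test against moM (log2 difference -0.24, SE 0.18, adjusted p = 0.393) or trIM (-0.37, SE 0.18, adjusted p = 0.202). With the mouse as a block, the difference of matIM from trIM passed in WT (-0.37, adjusted p = 0.0184) and in Ezr-KOm cells (-0.40, adjusted p = 0.0126), where the values were 194, 156 and 121 CPM in moM, 200, 132 and 121 CPM in trIM and 131, 102 and 105 CPM in matIM. Between moM and matIM of Ezr-KOm cells the difference was -0.48 (SE 0.19, adjusted p = 0.0712) without a block. That difference passed with replicate numbers (-0.47, adjusted p = 0.0142) or the mouse (-0.46, adjusted p = 0.00383) as a block. In each Ezr-KOm population replicate 1 was the highest library.

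**Figure D3:**
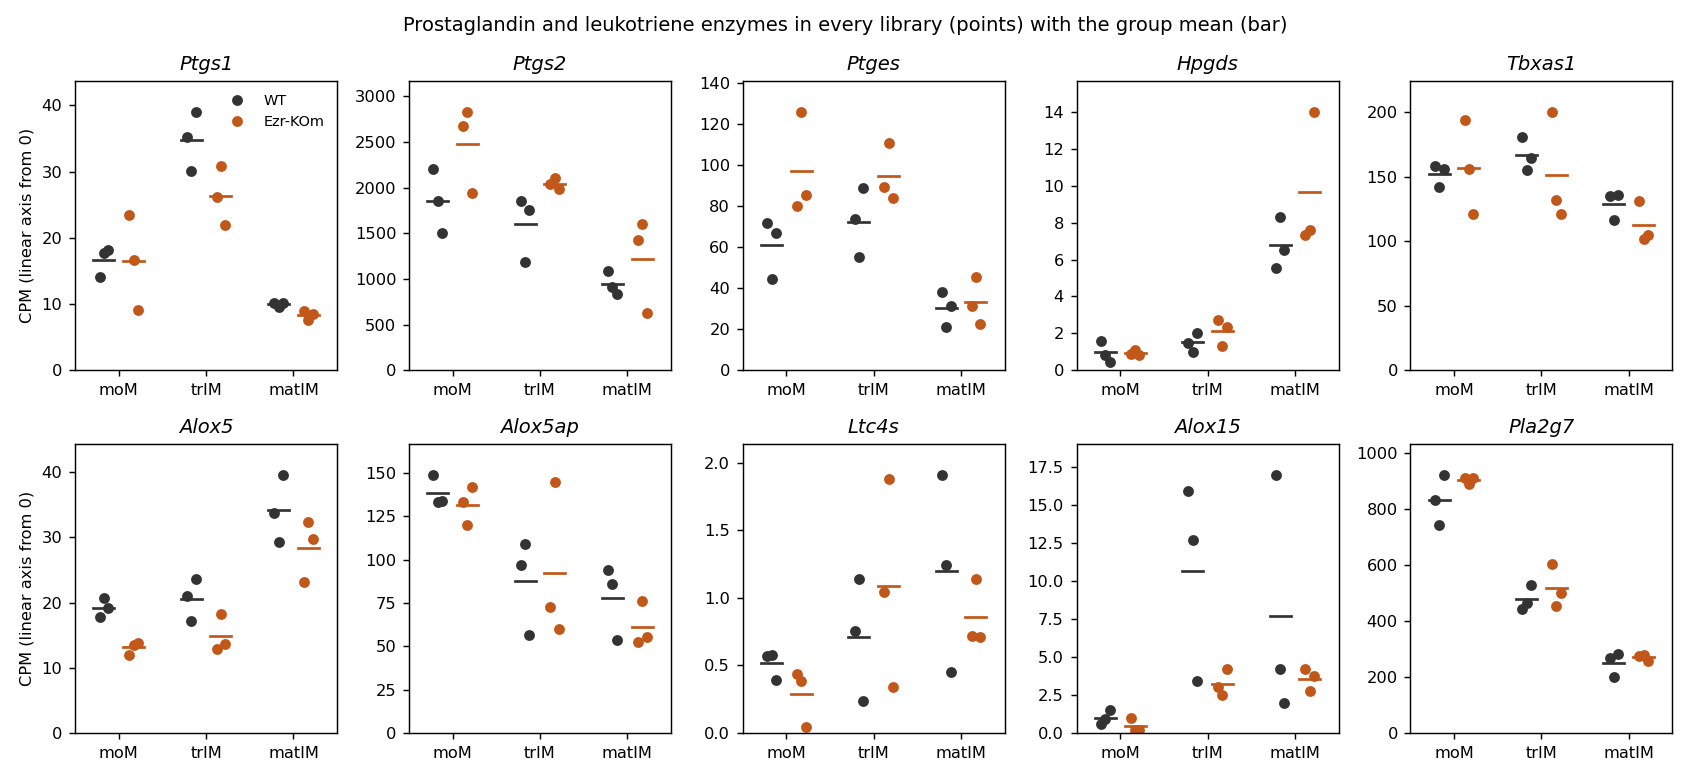
CPM of each member in all 18 libraries on linear axes from 0, with WT libraries as black and Ezr-KOm libraries as orange points and the mean of each group as a bar. Ptgs2, Ptges and Pla2g7 are lowest in matIM, Hpgds and Alox5 are highest there, and Ptgs1 peaks in trIM (mean 34.8 CPM in WT).

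Within the leukotriene branch, the lipoxygenase and its partner moved in opposite directions. Alox5 (chr6:116387038-116438139, - strand) read 17.8, 20.7 and 19.1 CPM in WT moM, 21.0, 17.1 and 23.6 CPM in trIM and 33.8, 29.3 and 39.6 CPM in matIM. All WT matIM libraries lay above the other 6, and moM and trIM overlapped. Alox5 rose 1.78-fold from moM to matIM (log2 difference 0.83, SE 0.18, adjusted p = 0.00178) and 1.66-fold from trIM to matIM (0.73, SE 0.18, adjusted p = 0.00615). The Ezr-KOm libraries read 12, 13.5 and 13.8 CPM in moM, 12.8, 18.3 and 13.6 CPM in trIM and 23.2, 32.3 and 29.7 CPM in matIM, a rise of 2.17-fold from moM (adjusted p = 0.000140). Dendritic cells, neutrophils and B cells express Alox5 too, and the part of their markers, given above, was not tested.

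Alox5ap (chr5:149201577-149224963, + strand), the membrane protein that presents arachidonic acid to 5-lipoxygenase, read 149, 133 and 134 CPM in WT moM, 96.7, 109 and 56.7 CPM in trIM and 94.1, 86.0 and 53.5 CPM in matIM. The moM libraries were above all others, and trIM and matIM overlapped. It fell 1.78-fold from moM to matIM (log2 difference -0.83, SE 0.29, adjusted p = 0.0416), a call that was lost without 1 of 5 of the 6 libraries (adjusted p from 0.0694 to 0.165) and with upper-quartile normalization (0.0639) or library totals (0.0624). From moM to trIM the difference was -0.66 (SE 0.29, adjusted p = 0.111), which passed with replicate numbers as a block (-0.71, adjusted p = 0.0292). In Ezr-KOm cells the values were 133, 120 and 142 CPM in moM, 72.5, 145 and 59.8 CPM in trIM and 52.2, 76.0 and 55.6 CPM in matIM, and the fall from moM to matIM was 2.14-fold (adjusted p = 0.00865). The highest Ezr-KOm trIM value came from the library with the largest total of the series.

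The ratio of Alox5ap to Alox5, each per kb of transcript, was 7.35 ± 1.02 in WT moM (6.50 to 8.47), 4.53 ± 2.04 in trIM (2.43 to 6.50) and 2.39 ± 0.884 in matIM (1.37 to 2.97), and 10.2 ± 1.15, 6.06 ± 1.80 and 2.19 ± 0.255 in the Ezr-KOm cells (SD, n = 3 each). Only the matIM libraries lay clear of moM in both genotypes. For Ptges against Hpgds, the ratio per kb was 83.5 ± 55.9 in WT moM, 51.5 ± 5.70 in WT trIM and 4.93 ± 2.25 in WT matIM, and no matIM library (2.64 to 7.13) reached the range of the other populations (45.3 to 148). Ptgs2 exceeded Ptgs1 69.2 ± 22.8 times per kb in WT moM, 27.6 ± 3.90 times in WT trIM and 57.1 ± 8.04 times in WT matIM. These ratios are given as descriptions, with no test.

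Ltc4s (chr11:50127288-50129443, - strand), which commits leukotriene A4 to the cysteinyl leukotrienes, was near the limit of detection. WT libraries read 0.569, 0.580 and 0.394 CPM in moM, 0.751, 1.14 and 0.235 CPM in trIM and 1.91, 1.24 and 0.447 CPM in matIM, and Ezr-KOm libraries 0.435, 0.386 and 0.0441 CPM in moM, the last from 1 count, 1.04, 1.88 and 0.339 CPM in trIM and 0.717, 1.14 and 0.713 CPM in matIM. The WT populations overlapped, and in the model without a block no difference passed in either genotype (matIM against moM 1.21, SE 0.70, adjusted p = 0.234 in WT and 1.55, SE 0.73, adjusted p = 0.147 in Ezr-KOm cells). From moM to trIM in Ezr-KOm cells it passed only with DESeq2 (1.95, adjusted p = 0.0472), with replicate numbers (1.89, adjusted p = 0.0160) or the mouse (1.86, adjusted p = 0.0226) as a block, or without trIM replicate 3 (2.32, adjusted p = 0.0348). Gm26542, which shares exon bases with Ltc4s on the other strand, had up to 50% of its level in 1 library.

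Alox15 (chr11:70234978-70242857, - strand), the lipoxygenase that oxygenates arachidonic acid at other positions and is a marker of resident peritoneal macrophages and eosinophils, was low in moM and varied widely in the other WT populations. It read 0.569, 0.912 and 1.54 CPM in WT moM, 15.9, 12.7 and 3.45 CPM in trIM and 17, 4.19 and 1.94 CPM in matIM. Every WT trIM and matIM library lay above every moM library, but 3 of these 6 libraries stood at 12.7 CPM or more and the others at 4.19 CPM or less. The rise from moM was 10.4-fold to trIM (log2 difference 3.38, SE 0.73, adjusted p = 0.00270) and 7.47-fold to matIM (2.90, SE 0.73, adjusted p = 0.00577), the latter 1.57 on the log2 scale without matIM replicate 1 (adjusted p = 0.0913). In Ezr-KOm cells the values were 1.00, 0.193 and 0.176 CPM in moM, 3.03, 2.47 and 4.24 CPM in trIM and 4.23, 2.75 and 3.73 CPM in matIM. Here too trIM and matIM lay above moM, by 7.08-fold (adjusted p = 0.0196, and 0.0882 or 0.103 without moM replicate 2 or 3) and 7.83-fold (adjusted p = 0.00900, and 0.0519 without moM replicate 3). Eosinophil markers (6 of 7 in the table) summed to between 1.48 and 3.61 CPM in moM, 5.03 and 8.23 CPM in trIM and 10 and 15.3 CPM in matIM, with Prg2 at no more than 0.299 CPM in a WT library. Siglecf, which alveolar macrophages also express, made up most of the sum in WT trIM (6.05 to 6.66 CPM), and Il5ra ran from 0.127 to 0.876 CPM there. All 6 markers had higher means in WT trIM than in WT moM, and all 6 were higher again in WT matIM. Il5ra averaged 0.0684, 0.413 and 1.58 CPM in WT moM, trIM and matIM. The part of these markers in the level of Alox15 was not tested.

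Pla2g7 (chr17:43878989-43923092, + strand), the secreted hydrolase that inactivates PAF, fell stepwise and had the smallest p of the members between moM and matIM. WT libraries read 833, 745 and 924 CPM in moM, 442, 464 and 531 CPM in trIM and 268, 201 and 282 CPM in matIM. Ezr-KOm libraries read 911, 890 and 913 CPM in moM, 606, 453 and 500 CPM in trIM and 276, 278 and 256 CPM in matIM. The 3 populations did not overlap in either genotype. In WT cells it fell 1.74-fold from moM to trIM (log2 difference -0.80, SE 0.15, adjusted p = 0.000682), 1.92-fold from trIM to matIM (-0.94, SE 0.15, adjusted p = 0.000135) and 3.33-fold from moM to matIM (-1.74, SE 0.15, adjusted p = 8.93e-08). The corresponding folds in Ezr-KOm cells were 1.74, 1.92 and 3.35. The 6 monocyte markers fell in the same order, from between 5069 and 6566 CPM in moM to between 1796 and 2646 CPM in trIM and 1091 and 1356 CPM in matIM.

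Of the differences between Ezr-KOm and WT cells in these genes, none passed an adjusted p of 0.05 in any population. By edgeR with Benjamini-Hochberg adjustment, 0 of the 10 were called in moM, trIM and matIM, where 0.171%, 0.164% and 0.152% of all genes were. At an unadjusted p under 0.05 there were 2 in moM, 2 in trIM and 0 in matIM, against 3.74%, 3.24% and 3.84% of all genes, and with DESeq2 0 passed an adjusted p of 0.05. By the rule of the study (unadjusted p under 0.05 and an absolute log2 fold change above 0.75) Alox15 in trIM was the 1 member called, with 0 in moM and 0 in matIM, against 1.83%, 2.51% and 2.40% of all genes in trIM, moM and matIM. The median log2 difference of the 10 members was -0.01 in moM, 0.10 in trIM and -0.23 in matIM, against 0.00 over all genes in moM and trIM. The genotypes did not overlap for Ptges and Alox5 in moM, Ptgs2 in trIM and Ptgs1 in matIM, that is for 2, 1 and 1 of the 10 members against 8.52%, 5.81% and 10.1% of all genes tested.

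Alox15 averaged 10.7 ± 6.49 CPM in WT trIM and 3.25 ± 0.902 CPM in Ezr-KOm trIM (SD, n = 3), a log2 difference of -1.73 (SE 0.66, adjusted p = 1.00 by edgeR). The WT library at 3.45 CPM lay within the Ezr-KOm range of 2.47 to 4.24 CPM. Its unadjusted p was under 0.05, but not without WT replicate 1 (-1.31, adjusted p = 0.992 by edgeR) or without Ezr-KOm replicate 2 (-1.55, adjusted p = 0.896 by edgeR), so that either library decided the call. Over all alternatives the adjusted p ran from 0.599 to 1.00. The difference in moM was -1.17 (SE 0.83) and in matIM -1.11 (SE 0.65), each with an adjusted p of 1.00 by edgeR. By the same rule it would have passed in moM without Ezr-KOm replicate 1 (-2.44) and in matIM without WT replicate 3 (-1.57), whereas without WT replicate 1 the difference in matIM turned to 0.23 (adjusted p = 1.00 by edgeR).

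Alox5 had a lower mean in Ezr-KOm cells in each population, without passing the test. In moM all 3 Ezr-KOm libraries (12 to 13.8 CPM) lay below all WT libraries (17.8 to 20.7 CPM), with a log2 difference of -0.55 (SE 0.18, adjusted p = 0.756 by edgeR). The difference was -0.46 in trIM (SE 0.18) with 1 Ezr-KOm library inside the WT range, and -0.27 in matIM (SE 0.18), each with an adjusted p of 1.00 by edgeR. Under the alternatives the adjusted p in moM ran from 0.326 to 1.00.

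The inducible pair, by contrast, had higher means in Ezr-KOm cells, without passing the test. Ptges in moM averaged 61.1 ± 14.7 CPM in the WT and 97.0 ± 24.8 CPM in the Ezr-KOm libraries, a 1.59-fold difference (log2 0.67, SE 0.27, adjusted p = 1.00 by edgeR) with every Ezr-KOm library above every WT library. Without WT replicate 1 (0.80) or Ezr-KOm replicate 1 (0.79) it passed the rule of the study. It was 0.39 (SE 0.27) in trIM and 0.13 (SE 0.27) in matIM on the log2 scale. Ptgs2 differed by 0.42 (SE 0.26) in moM, 0.36 (SE 0.26) in trIM and 0.37 (SE 0.26) in matIM, each with an adjusted p of 1.00 by edgeR. Its Ezr-KOm trIM libraries (1984 to 2109 CPM) all lay above the WT ones (1189 to 1850 CPM), and in the other populations the genotypes overlapped by range. Compared by replicate number, which pairs the genotypes, the Ezr-KOm library was higher in 3 of 3 pairs in moM, 3 of 3 in trIM and 2 of 3 in matIM. Other members also had 3 of 3 pairs on one side. Ptges in moM and Hpgds and Ltc4s in trIM were higher in Ezr-KOm libraries. Alox5 and Ltc4s in moM and Ptgs1 and Tbxas1 in matIM were lower. The populations share replicate numbers, so these counts are not independent, and the share over all genes was not computed. Beside Alox15, Alox5 and the inducible pair, Pla2g7 differed by 0.11 to 0.12 on the log2 scale (SE 0.15). Ptgs1 in matIM, the only other pair of groups that did not overlap, differed by -0.26 (SE 0.24, adjusted p = 1.00 by edgeR).

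**Figure D4:**
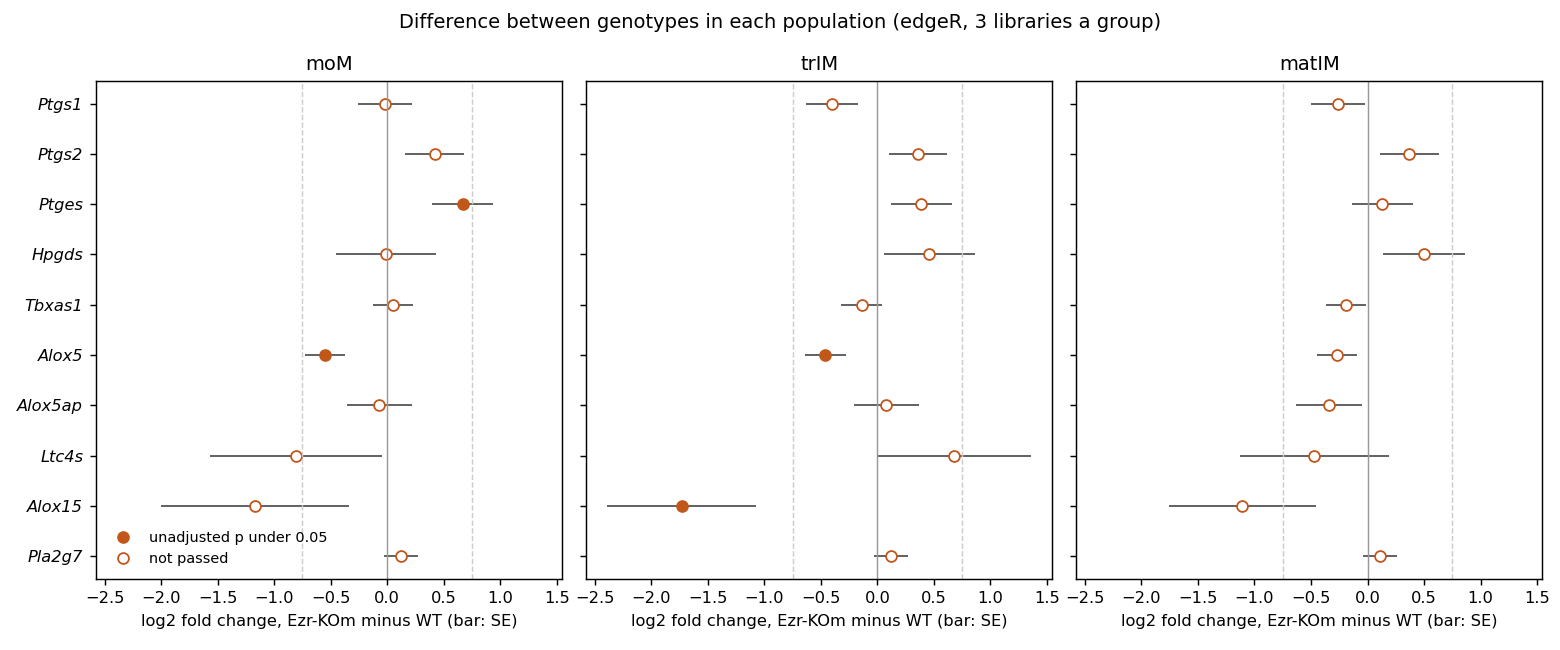
Log2 fold change of each member between Ezr-KOm and WT cells in moM, trIM and matIM. Bars are the SE of the edgeR fit, dashed lines mark a change of 0.75 in either direction, and filled points have an unadjusted p under 0.05. Alox15 in trIM (-1.73) is the 1 filled point outside the dashed lines, and Ptges (0.67) and Alox5 (-0.55) are filled in moM.

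Whether the genotypes differed by another amount in one population than in another was tested by interaction terms. None of the 10 members passed in the 3 interactions, and 0% of all genes did at an adjusted p under 0.05. At an unadjusted p under 0.05 there were 0 members in each, against 1.47%, 1.70% and 1.16% of all genes. With DESeq2, 0 members passed an adjusted p of 0.05 either. The smallest p belonged to Ltc4s between trIM and moM, with an interaction of 1.49 (SE 1.02, adjusted p = 1.00 by edgeR), followed by Ptges between matIM and moM, with -0.54 (SE 0.38, adjusted p = 1.00).

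The other genes of these pathways were drawn from 8 lists of 66 names, of which 58 were in the table and 50 were tested. In WT cells, 7 rose and 4 fell from moM to trIM, 6 rose and 11 fell from moM to matIM and 5 rose and 13 fell from trIM to matIM. In Ezr-KOm cells the counts of pathway genes were 6 and 4, 7 and 13, and 5 and 13, and the shares of all genes called in these comparisons are those given above. Their median log2 difference was 0.09, -0.11 and -0.10 in the 3 WT comparisons. No pathway gene passed an adjusted p of 0.05 between the genotypes in any population (edgeR with Benjamini-Hochberg adjustment). By the rule of the study, Pla2g6, a calcium-independent phospholipase, was higher in Ezr-KOm moM (5.46 ± 0.846 CPM against 3.01 ± 0.718, log2 difference 0.87, SE 0.25, adjusted p = 0.535), and Dpep3, a dipeptidase of the family that trims leukotriene D4, in Ezr-KOm trIM (2.87 ± 0.643 CPM against 1.27 ± 0.294, log2 difference 1.16, SE 0.46, adjusted p = 1.00, n = 3 each, edgeR). The same rule called 2.51% of all genes in moM and 1.83% in trIM.

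Among 7 tested phospholipases, Pla2g4a, the cytosolic enzyme that releases arachidonic acid, fell from 127 ± 9.58 CPM in WT moM and 136 ± 16.3 CPM in WT trIM to 71.2 ± 8.46 CPM in WT matIM (log2 -0.83 and -0.93, adjusted p = 0.000914 and 0.000452 by edgeR). Pla2g4f rose from 0 to 3 counts a library in WT moM to 1.90 ± 1.01 CPM in trIM and 23.1 ± 10.9 CPM in matIM, at least 168-fold higher than a floor of 3 counts per moM library. The secreted phospholipase Pla2g2d, a gene of lymphoid-tissue dendritic cells and macrophages, was at 0 counts in the WT moM libraries and at 2.22 ± 0.929 CPM in matIM, at least 16.1-fold higher than that floor. Both rose together with the dendritic cell list, whose part was not tested.

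Downstream of the cyclooxygenases, 1 of 7 tested genes of prostanoid synthesis rose from WT moM to trIM, Ptgis, prostacyclin synthase (0.924 ± 0.278 to 3.42 ± 0.489 CPM, log2 1.87, adjusted p = 0.00575 by edgeR), and it fell again to 0.974 ± 0.488 CPM in matIM (adjusted p = 0.00676). From WT moM to trIM, 21.6% of all genes tested were called in either direction. Akr1c18, a hydroxysteroid dehydrogenase with prostaglandin F synthase activity, fell from 1.81 ± 0.585 CPM in WT moM to 0.103 ± 0.143 CPM in WT matIM (adjusted p = 0.00178). Prxl2b, which makes prostaglandin F2 alpha, fell from 35.1 ± 11.3 CPM in WT trIM to 19.1 ± 5.54 CPM in matIM (adjusted p = 0.0258).

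Of 6 tested genes of prostaglandin uptake and breakdown, 3 fell and 0 rose from WT moM to matIM, against 24.8% of all genes called in either direction. Slco2a1, the prostaglandin transporter, was at 19.5 ± 2.05 CPM in WT moM, 82.8 ± 36.2 CPM in trIM and 8.25 ± 2.79 CPM in matIM, and every step passed (adjusted p = 0.000125 from moM to trIM and 1.24e-06 from trIM to matIM by edgeR). Hpgd, the dehydrogenase that inactivates prostaglandins, fell from 55.5 ± 11.6 CPM in moM to 20.2 ± 4.33 CPM in matIM (log2 -1.46, adjusted p = 0.000558), and Ptgr1, the reductase of the next step, from 26.5 ± 2.40 to 9.23 ± 3.27 CPM (-1.53, adjusted p = 0.000375). Epithelial and endothelial markers peaked in trIM as Ptgs1, Ptgis and Slco2a1 did, and their part in these genes was not tested.

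The receptors divided by subtype. Ptger4, a prostaglandin E2 receptor, rose from 201 ± 36.2 CPM in WT moM to 354 ± 17.1 CPM in WT matIM (log2 0.82, SE 0.19, adjusted p = 0.00380 by edgeR), while Ptger2, another, fell from 23.9 ± 4.68 to 9.78 ± 2.25 CPM (-1.29, SE 0.19, adjusted p = 6.66e-05). Ptgir, the prostacyclin receptor, fell from 18.8 ± 2.90 CPM in moM to 9.78 ± 3.11 CPM in trIM (adjusted p = 0.0365). Of 4 tested leukotriene receptors, Cysltr1 fell from 60.0 ± 4.92 CPM in WT moM to 35.3 ± 4.71 CPM in trIM (log2 -0.77, adjusted p = 0.00208), and its level of 44.1 ± 4.84 CPM in matIM did not pass against moM (adjusted p = 0.0502).

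Among 11 tested genes of leukotriene synthesis and breakdown, Lta4h, the hydrolase that makes leukotriene B4, rose with Alox5 from 111 ± 11.5 CPM in WT moM to 210 ± 13 CPM in WT matIM (log2 0.92, SE 0.14, adjusted p = 5.43e-05 by edgeR). Cyp4f18, which degrades leukotriene B4, fell from 642 ± 257 CPM in WT trIM to 303 ± 23.8 CPM in matIM (-1.08, adjusted p = 0.000512), and Dpep1, a dipeptidase of leukotriene D4, from 4.71 ± 2.29 to 0.811 ± 0.446 CPM (-2.54, adjusted p = 0.000817). Both other lipoxygenases tested fell in 1 comparison each: Aloxe3 from 1.5 ± 0.665 CPM in WT moM to 0.129 ± 0.153 CPM in matIM (adjusted p = 0.00134) and Alox12, the platelet-type enzyme, from 2.30 ± 1.47 CPM in WT trIM to 0.203 ± 0.279 CPM in matIM (adjusted p = 0.00291). The shares of all genes called in these comparisons were 24.8% and 18.5%.

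Of 7 genes of PAF turnover other than Pla2g7, Lpcat2, the inducible acyltransferase that makes PAF, fell from 203 ± 6.74 CPM in WT moM to 142 ± 17.7 CPM in WT matIM (log2 -0.51, adjusted p = 0.0146 by edgeR). Lpcat1 rose from 44.2 ± 8.06 to 91.8 ± 14.0 CPM (1.05, adjusted p = 0.000452), and Pafah1b3, a subunit of the intracellular hydrolase, from 4.47 ± 0.372 to 13.6 ± 1.01 CPM (1.60, adjusted p = 1.84e-05).

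**Figure D5:**
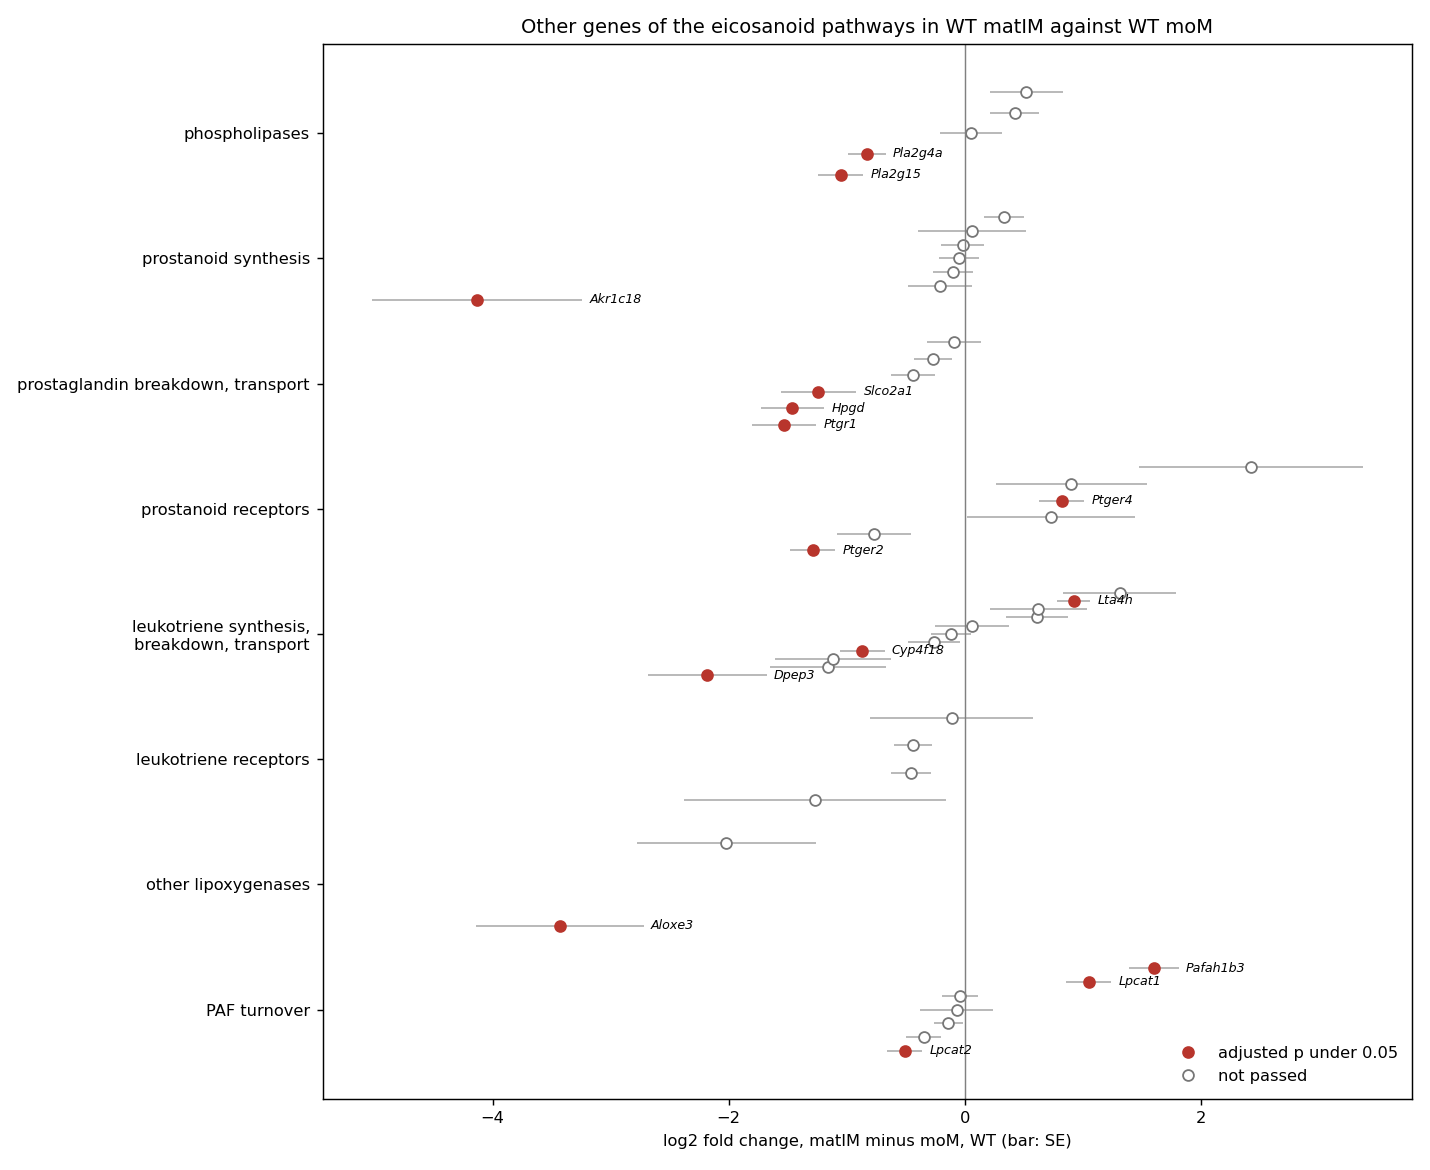
Log2 fold change from WT moM to WT matIM of 48 of the 50 other pathway genes tested, by list, with the SE of the edgeR fit as bars. Filled points passed an adjusted p of 0.05 and carry their names, and Pla2g4f and Pla2g2d are left out because their moM counts were at or under 3 a library. Ptger4 (0.82) and Lta4h (0.92) rose, whereas Ptger2 (-1.29), Hpgd (-1.46) and Ptgr1 (-1.53) fell.

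The genes nearest in pattern were searched over the means of the 6 groups, as the root mean square of the differences in centred log2 CPM among 12046 genes. For Ptgs2 they were Rusc2 (0.07) and Sash1 (0.08), for Pla2g7 Trem1 (0.07) and Klra2 (0.08), and for Tbxas1 Tpp1 and Kat2a (0.04 each), with Tbxas1 itself varying by 0.19 around its mean. Ptges was nearest to Cables1 and Fpr2 (0.13 each), Ptgs1 to Ehd2 and Pdgfa (0.13 each), Alox5 to Cdca7l (0.09) and Pank1 (0.12), Alox5ap to Rcbtb2 (0.06) and Ptpn18 (0.07), and Hpgds to Rras2 (0.09) and Gm10752 (0.14). No gene came closer than 0.18 to Ltc4s (Zfta, then Rab37 at 0.20) or 0.40 to Alox15 (Asprv1, then Mrgpra2b at 0.46), the members that varied most between replicates.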

How the data were processed

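Bulk RNA-seq was made from sorted lung moM, trIM and matIM of WT and Ezr-KOm mice, 3 libraries in each of 6 groups. The authors amplified cDNA with a full-length, low-input kit, sequenced paired ends, aligned with STAR 2.7.9a to GRCm39 and deposited unnormalized counts of reads per Gencode gene. The strand column is not stated, so genes overlapping on opposite strands cannot be told apart. Members and lists were chosen with earlier results of these data known.

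Tests used edgeR 4.0.16 (R 4.3.3). The filter filterByExpr (smallest count 10) left 15811 genes, TMM factors ran from 0.931 to 1.07, and 1 quasi-likelihood model of the 6 groups (12 residual degrees of freedom) gave all contrasts, with Benjamini-Hochberg adjustment over all genes. Calls used an adjusted p under 0.05 or the rule of the study (p under 0.05 and absolute log2 fold change above 0.75). CPM uses these library sizes. Of other genes, up to 3 per pathway list with the smallest p in WT population comparisons were named, with those meeting the rule of the study between genotypes and the 2 nearest in pattern to each member. The sequences came from RefSeq. P-values measure the spread between these samples. The procedure was tested on simulated data.

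No pair of replicates was identical, and 0 columns belonged to other samples. Whether replicate numbers pair the samples was checked by correlating their deviations from the group means. The correlation between genotypes of a population was 0.102 to 0.316 for the same number (at most 0.0508 otherwise), so the numbers pair these samples. Within a genotype, between its populations, it was 0.0905 to 0.397 for the same number (at most 0.0316 otherwise). All pairs with trIM were above a cut of 0.1. The 2 moM and matIM pairs under that cut (0.0947 and 0.0905) still lay above every pair of different numbers. The alternatives tried were library totals, upper-quartile normalization, DESeq2 1.42.0, other filters, robust empirical Bayes, separate fits, blocks by replicate number or mouse (genotype and number), and each library left out.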

Additional observations from a re-analysis of the deposited data

How the results depend on the processing

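The 10 members' differences in 9 comparisons were recomputed 1302 times, of which 1203 kept direction and side of the threshold, 23 lost and 42 gained a call, and 34 changed sign, 0 of them differences that had passed the test. With replicate numbers as a block, 0 members passed between genotypes at an adjusted p and 1 by the rule of the study, as without it. Between moM and matIM of Ezr-KOm mice, the samples of replicate 3 correlated at 0.0905, under the cut of 0.1. There Ltc4s passed with the replicate block (1.74, adjusted p = 0.0199) and with the mouse as a block (1.72, adjusted p = 0.0284). Tbxas1 did so too (-0.47, adjusted p = 0.0142, and -0.46, adjusted p = 0.00383), all by edgeR. From moM to trIM in Ezr-KOm cells the count of members called, 2, became 5 with DESeq2, 4 with upper-quartile normalization, 4 with the replicate block, 4 with the mouse as a block, 1 with at least 10 counts in every library (fewer genes tested) and 1 to 4 without 1 library (1 without moM replicate 2 or 3, 4 without trIM replicate 2 or 3). The count from WT moM to matIM, 8, was 5 to 6 without 1 library, the lowest without matIM replicate 2. By the rule of the study, leaving out 1 library gave 0 to 2 members in moM (2 without Ezr-KOm replicate 1), 0 to 1 in trIM and 0 to 1 in matIM, and the filter of 10 counts in every library gave 0 in trIM, where Alox15 was then not tested. The cause of the other changes was not tested.

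No difference that changed sign had passed the test. The largest was the genotype difference of Alox15 in matIM, -1.11, which was 0.23 without WT replicate 1. Between genotypes in moM, Ptgs1 was 2e-04 with upper-quartile normalization and Hpgds 0.01 with the replicate block. From moM to trIM in Ezr-KOm cells, Ptges was 0.06 with upper-quartile normalization, 0.05 with library totals and 0.02 with 10 counts in every library, and Tbxas1 0.04 and 0.03 with the first 2. Without 1 library, the genotype difference ran in moM from -0.36 to 0.27 (Ptgs1), -0.36 to 0.52 (Hpgds) and -0.14 to 0.20 (Tbxas1), in trIM from -0.40 to 0.31 (Alox5ap), -5e-04 to 1.16 (Ltc4s) and -0.01 to 0.21 (Pla2g7), and in matIM from -0.17 to 0.34 (Ptges), -0.87 to 0.03 (Ltc4s), -1.57 to 0.23 (Alox15) and -0.03 to 0.20 (Pla2g7). Between populations it ran from -0.01 to 0.24 (Alox5) and -0.02 to 0.87 (Ltc4s) for WT trIM against moM, -0.40 to 0.04 (Alox5ap) for WT matIM against trIM, -0.16 to 0.20 (Ptges) and -0.31 to 0.13 (Tbxas1) for Ezr-KOm trIM against moM, and -0.78 to 0.31 (Ltc4s) and -0.03 to 0.38 (Alox15) for Ezr-KOm matIM against trIM.

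Depth limits Ltc4s, Hpgds in moM and Alox15 in Ezr-KOm moM, at or under about 1 CPM. Overlap with genes on the other strand can touch Ltc4s (up to 50% in 1 library) and Hpgds (up to 10%). It was at most 2.18% for Ptgs2, Tbxas1, Alox5ap and Pla2g7 by shared exons, among overlapping genes with counts. Ptgs1, Ptges and Alox5 share 148, 317 and 449 exon bases with opposite-strand genes that have no counts here, and Pla2g7 shares 89. Their share could not be measured.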
